A study of Mus musculus with 2 samples.

Results

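The collagens and the enzymes that modify and cross-link them were examined in laser-captured areas of PiZ mouse liver. Members were the probe sets that the platform annotation assigns to exactly 1 gene symbol, where that symbol is a collagen chain (Col, a number, a, a number), Lox, Loxl1 to Loxl4, P4ha1 to P4ha3 or Plod1 to Plod3. Serpinh1, the collagen chaperone, was left out by the rule. This gave 51 genes on 51 probe sets, of 30142 genes and 72688 probe sets in all, with 42 collagen chains and 9 processing enzymes. Another 4 probe sets (Plod3, Col7a1, Col6a4 and Loxl2) name a member beside a further gene and were kept apart.

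The globule-containing group and the globule-free group were 1 array each, and each array held RNA pooled from 2 mice. All mice were untreated C57BL/6 PiZ animals, 3 months old, which carry the human Z mutant of alpha-1-antitrypsin (ATZ) under its own human promoter, so both groups carry the transgene and no wild-type liver was compared. Areas with and without ATZ globules were cut from Cresyl Violet stained frozen sections, and the sources used here do not say whether the same mice gave both pools. With no replicates there is no test: every value describes these 2 arrays, and p-values, standard deviations and standard errors are not given. Defining hepatocyte genes had high signals on both arrays: Alb was at the ceiling on both, and Ttr read 19.72 on the log2 scale in globule-containing areas and 19.75 in globule-free areas. Signals this close to the ceiling can hide a difference. Of 7 measured hepatocyte markers, 2 were lower by 2-fold or more in globule-containing areas and 0 higher. The median log2 difference of those below the ceiling was -0.77. Laser-captured areas hold other cells as well, and more cells of a type cannot be told apart from more RNA per cell.

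Collagens are secreted proteins built of chains that wind into a helix, and each molecule is named by its type and each gene by its chain. Types I, III and V form the fibrils of scar and portal tract, type IV forms the sheet of basement membranes, type VI forms beaded microfilaments, and types XII and XIV sit on fibril surfaces. In the endoplasmic reticulum (ER), prolyl 4-hydroxylases (P4ha subunits) stabilise the helix and lysyl hydroxylases (Plod genes) prepare it for cross-linking, and outside the cell the lysyl oxidases (Lox and Loxl genes) make the cross-links. In liver, hepatic stellate cells and portal fibroblasts are the best known source of fibrillar collagen.

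Globule-containing areas had higher signals for a small set of interstitial collagens, namely Col3a1, Col6a3, Col14a1, Col1a2 and Col1a1, and for the cross-linking enzyme Loxl1, which drops below 2-fold (at least 1.82-fold) once its globule-free signal is raised to background. They had a lower signal for Col18a1, whose product gives rise to endostatin. Of the 51 members, 6 (11.8%) were higher by 2-fold or more, 1 (1.96%) was lower by as much, and 44 lay within 2-fold, and with all dim values raised to background 5 were higher. Over all 30142 genes the same rule called 3.41% higher and 2.87% lower, so the share of members that were higher was above that of all genes and the share that were lower was close to it. The same 7 members were called among the 15 whose mean signal reached a floor of 4.76, where 6.47% of all genes were higher and 5.26% lower, but nothing is read from that share, since a member could reach the floor through its high group alone. At a threshold of 4-fold, 2 members (Col3a1 and Col6a3) were higher and 0 lower, against 0.727% and 0.667% of all genes.

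Most members gave no signal above background. Background was taken as the level below which 95% of 1719 probe sets of olfactory and vomeronasal receptors lay, a log2 signal of 4.85 on the globule-containing and 5.04 on the globule-free array. Of the 51 members, 17 lay above it on an array, 8 of them on both, and 34 on neither. Over all 30142 genes, 14847 lay above it on an array and 15295 on neither. The level is higher on the globule-free array, and the globule-free signals of Col1a2 (4.97), Col4a2 (5.02) and Col6a3 (4.94) lay between the levels of the arrays. Which array a dim member passes on thus depends in part on these levels, and nothing is read from it. The 17 members above background on an array had 16 positive differences and 1 negative, against 55.9% positive over all 14847 such genes. However, 9 of the 17 passed through the globule-containing array alone, which favours a positive difference, so nothing is read from this split. The 34 members at background had a median difference of -0.06, with 9 above 0 and 25 below. Over all 15295 genes at background the median was -0.11 and 28.2% were above 0. The median over all 51 members was -0.02, beside -0.06 over all genes, so the middle member lay close to the middle gene and the large differences sat in a few members.

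**Figure D1:**
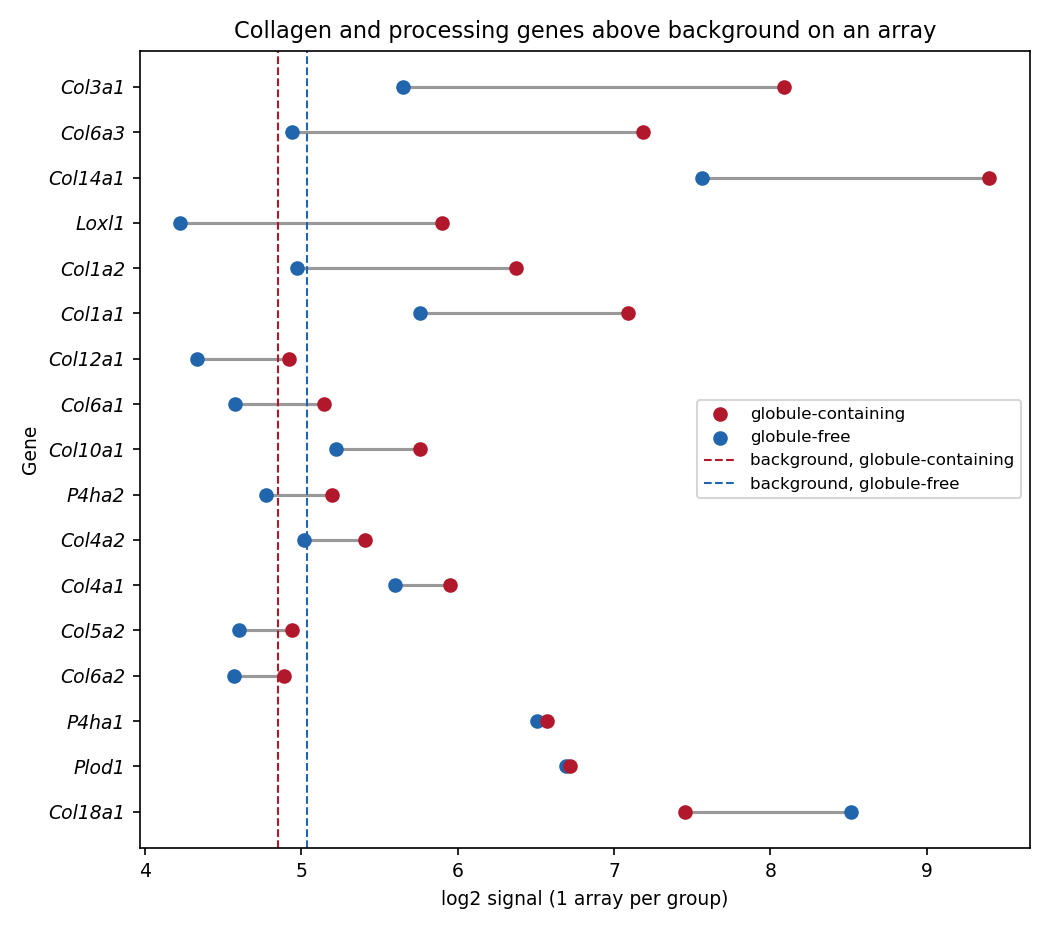
Log2 signal (horizontal axis) of the 17 members above background on an array, with 1 point for the globule-containing and 1 for the globule-free array and dashed lines at each array's background. Genes run down by difference, from Col3a1 at 8.09 against 5.65 to Col18a1 at 7.46 against 8.52. Col18a1 is the only one of the 17 with its globule-containing point on the left.

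**Figure D2:**
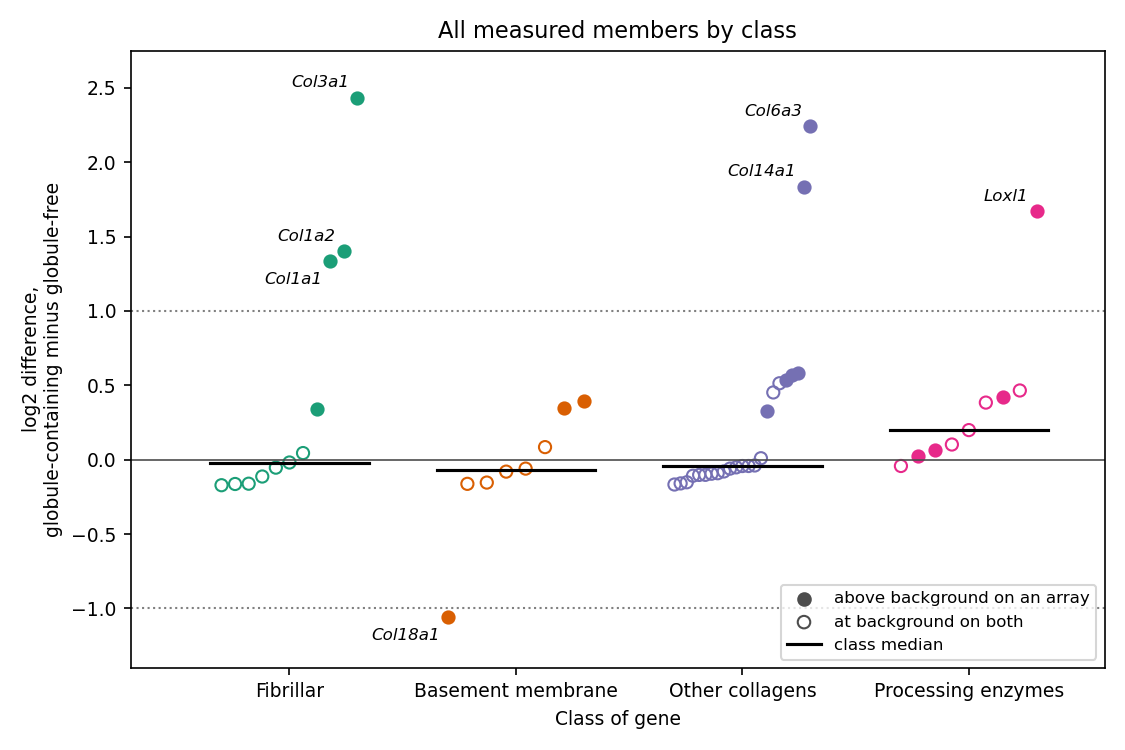
Log2 difference, globule-containing minus globule-free (vertical axis), of all 51 members by class. Filled points lie above background on an array, open points on neither, bars are class medians and dotted lines mark 2-fold. Class medians lie near 0 (-0.02 fibrillar, -0.07 basement membrane, -0.04 other, 0.20 processing), while 7 labelled genes lie beyond the dotted lines.

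Among the 11 chains of fibrillar collagens, 3 were higher by 2-fold or more and 8 lay within 2-fold. These 3 are the chains of types I and III. Col3a1, the only chain of type III collagen (probe set TC0100000343.mm.1), gave a log2 signal of 8.09 in globule-containing areas and 5.65 in globule-free areas, a difference of 2.43 or 5.40-fold. This was the largest difference of the 51 members, and it ranked 139 among the 30142 genes, counted from the highest. Col1a1, the alpha-1 chain of type I collagen (TC1100001448.mm.1), had 7.09 in globule-containing against 5.76 in globule-free areas, 2.52-fold higher. Col1a2, the alpha-2 chain (TC0600000010.mm.1), had 6.37 in globule-containing areas against 4.97 in globule-free areas, where it lay at background, so it was at least 2.52-fold higher. The alpha-1 and alpha-2 chains assemble into the same type I molecule and both were above the 2-fold threshold, but no gap between them is read, since the globule-free Col1a2 signal was at background.

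None of the remaining fibrillar chains was 2-fold apart. Col5a2, a chain of type V collagen, which nucleates type I fibrils, had 4.94 in globule-containing areas, just above background, and 4.60 in globule-free areas, below it. Its gene is the direct neighbour of Col3a1 on chromosome 1, and their log2 differences were 0.34 for Col5a2 and 2.43 for Col3a1. The other 7 chains were at background on both arrays. They are Col5a1 and Col5a3 of type V, Col2a1, Col11a1 and Col11a2 of cartilage fibrils, and Col24a1 and Col27a1. Their log2 signals ran between 3.84 and 4.63 in globule-containing and between 4.01 and 4.64 in globule-free areas, and their differences between -0.17 and 0.04. Type V molecules need alpha-1 chains, and the Col5a1 signal was 4.12 in globule-containing areas and 4.07 in globule-free areas.

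Promoter sequences from RefSeq (GRCm38.p6), matched by symbol, cover 38 of the 51 members, and each runs from 250 bases before the gene's start to 50 after it. Those of the higher members Col1a2 (chr6:4505368-4505667, plus strand), Col3a1 (chr1:45311288-45311587, plus strand) and Col6a3 (chr1:90843922-90844221, minus strand) are shown 5′ to 3′, to set the upstream sequence of genes that were higher together side by side. Col1a1, Col14a1 and Loxl1 had no entry. Capitals mark 3 sets of letters, searched on either strand: the CCAAT box by the letters CCAAT, the TATA box by the letters TATAAA, and the GC box by the letters GGGCGG. No copy overlaps another in the windows shown.
Col1a2: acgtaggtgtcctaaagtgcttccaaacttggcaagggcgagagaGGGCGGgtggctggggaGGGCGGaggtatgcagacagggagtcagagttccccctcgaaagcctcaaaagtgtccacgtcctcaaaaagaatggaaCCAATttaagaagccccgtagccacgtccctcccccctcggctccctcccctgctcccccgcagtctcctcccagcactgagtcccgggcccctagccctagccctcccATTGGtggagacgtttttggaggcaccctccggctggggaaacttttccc
Col3a1: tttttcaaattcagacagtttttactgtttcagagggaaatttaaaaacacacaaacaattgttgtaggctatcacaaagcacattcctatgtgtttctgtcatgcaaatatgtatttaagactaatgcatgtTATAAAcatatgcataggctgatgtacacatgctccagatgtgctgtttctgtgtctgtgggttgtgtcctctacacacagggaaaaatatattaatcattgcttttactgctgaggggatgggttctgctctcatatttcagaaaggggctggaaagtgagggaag
Col6a3: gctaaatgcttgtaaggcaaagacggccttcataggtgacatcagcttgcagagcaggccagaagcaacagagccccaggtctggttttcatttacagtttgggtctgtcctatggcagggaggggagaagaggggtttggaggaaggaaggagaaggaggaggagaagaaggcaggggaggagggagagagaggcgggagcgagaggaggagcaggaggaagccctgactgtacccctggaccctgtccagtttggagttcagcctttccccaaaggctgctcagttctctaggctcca

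The promoters of these 3 genes had little in common by these letters. The Col1a2 window held 2 copies of CCAAT and 2 of GGGCGG and no TATAAA. The Col3a1 window held 1 TATAAA, which begins 117 bases upstream of the start, and neither of the others, and the Col6a3 window held none of the 3. Their GC content was 61.0% for Col1a2, 37.7% for Col3a1 and 56.3% for Col6a3. Over the 41 promoters of members, CCAAT was found in 11 (26.8%), TATAAA in 7 (17.1%) and GGGCGG in 26 (63.4%). Over all 32851 promoters of the same length the shares were 37.4%, 13.6% and 35.7%. A match is a description of the letters in the window and not a binding site.

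Of the 8 collagens of the basement membrane, 1, Col18a1, was lower by more than 2-fold and no gene was higher by as much. Col4a1 and Col4a2 encode the chains of the widespread type IV molecule. Col4a1 had 5.95 in globule-containing areas and 5.60 in globule-free areas, 1.27-fold higher. Col4a2 had 5.41 in globule-containing areas and 5.02, at background, in globule-free areas, which makes it at least 1.29-fold higher. Their log2 differences on the deposited scale were 0.35 for Col4a1 and 0.39 for Col4a2, the second resting on a globule-free signal at background. Col4a3, Col4a4, Col4a5 and Col4a6, the chains of type IV networks known from the kidney glomerulus and other specialised membranes, and Col15a1 were at background on both arrays. Their differences ran between -0.16 and 0.08.

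Col4a1 and Col4a2 stand head to head on chromosome 8 and are transcribed in opposite directions from starts that lie close together. Their promoter windows in RefSeq (GRCm38.p6) are shown because they overlap, by 78 bases. The windows are chr8:11312777-11313076 on the minus strand for Col4a1 and chr8:11312555-11312854 on the plus strand for Col4a2. Capitals mark the same letters as above.
Col4a1: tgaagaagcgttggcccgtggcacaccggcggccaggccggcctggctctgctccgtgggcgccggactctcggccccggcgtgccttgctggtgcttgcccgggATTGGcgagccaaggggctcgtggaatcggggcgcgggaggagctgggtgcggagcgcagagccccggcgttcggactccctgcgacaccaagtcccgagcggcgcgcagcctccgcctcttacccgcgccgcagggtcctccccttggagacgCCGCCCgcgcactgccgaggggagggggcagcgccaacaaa
Col4a2: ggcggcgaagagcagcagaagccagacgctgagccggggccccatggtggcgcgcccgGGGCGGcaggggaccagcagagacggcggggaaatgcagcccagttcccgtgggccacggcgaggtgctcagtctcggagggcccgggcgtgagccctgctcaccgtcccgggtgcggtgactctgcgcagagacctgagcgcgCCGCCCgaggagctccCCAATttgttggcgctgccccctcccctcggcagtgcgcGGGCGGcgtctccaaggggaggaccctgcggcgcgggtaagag

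The windows of both genes were rich in G and C, at 74.0% for Col4a1 and 73.7% for Col4a2, and each held 1 CCAAT and at least 1 GGGCGG on either strand. In the overlap the end of 1 sequence is the reverse complement of the end of the other, so the GC box there counts for both genes. That box begins 10 bases into Col4a1 and 8 bases into Col4a2, so it lies past both annotated starts and not upstream of either.

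Col18a1 encodes type XVIII collagen, a basement membrane collagen that carries heparan sulphate, is known to be made by hepatocytes and releases endostatin from its end. Its probe set (TC1000002418.mm.1) gave a log2 signal of 7.46 in globule-containing areas and 8.52 in globule-free areas, 2.08-fold lower, and both signals lay well above background. It was the only member with a lower signal among those above background, and its log2 difference of -1.06 lay just past the 2-fold threshold. In the list of hepatocyte markers, which stands beside it because the gene is made by hepatocytes, 2 of 7 measured genes were lower by 2-fold or more and 0 higher by as much, and those below the ceiling had a median difference of -0.77. Cps1, a urea cycle enzyme of periportal hepatocytes, was 5.17-fold lower and Cyp2f2, which also marks periportal cells, 4.96-fold. Apoa1 was 1.74-fold lower and Hnf4a 1.68-fold lower. Pericentral Cyp2e1 had 18.97 in globule-containing areas and 18.85 in globule-free areas. The summed linear signal of the hepatocyte list was 2817493 in globule-containing areas and 3584054 in globule-free areas with Alb, which was at the ceiling. Without Alb it was 1838994 in globule-containing areas and 2671051 in globule-free areas. Without the brightest members, Alb and Ttr, the sums were 977758 in globule-containing areas and 1789741 in globule-free areas. None of the measured members of this list lay at background. The part of these genes in the Col18a1 value was not tested.

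RefSeq gives Col18a1 2 starts, chr10:77166481-77166780 and chr10:77113656-77113955, both on the minus strand of GRCm38.p6. Both windows are shown because the gene was the member with a lower signal and the probe set does not say which start its RNA came from.
Col18a1, upstream start: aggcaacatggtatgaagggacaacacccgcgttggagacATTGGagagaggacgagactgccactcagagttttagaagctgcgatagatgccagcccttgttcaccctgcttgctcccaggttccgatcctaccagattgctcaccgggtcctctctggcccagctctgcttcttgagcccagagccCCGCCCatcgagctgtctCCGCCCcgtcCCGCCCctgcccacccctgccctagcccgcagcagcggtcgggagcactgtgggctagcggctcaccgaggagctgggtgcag
Col18a1, downstream start: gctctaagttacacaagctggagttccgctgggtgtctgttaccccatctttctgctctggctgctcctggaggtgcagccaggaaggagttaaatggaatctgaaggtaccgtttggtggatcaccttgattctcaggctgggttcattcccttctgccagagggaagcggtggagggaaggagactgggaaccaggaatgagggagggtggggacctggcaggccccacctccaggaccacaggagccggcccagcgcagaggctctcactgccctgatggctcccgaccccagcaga

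The upstream window held 3 copies of the GC box, all on the opposite strand (CCGCCC), and 1 CCAAT box, also on the opposite strand. The downstream window held none of the 3 sets of letters. Neither window contained TATAAA. GC content was 63.3% in the upstream and 59.7% in the downstream window.

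Of the 23 other collagens, 2 were higher by 2-fold or more and none lower by as much. Col14a1 encodes type XIV collagen, which binds the surface of type I fibrils. Its probe set (TC1500000395.mm.1) had 9.40 in globule-containing areas and 7.56 in globule-free areas, 3.57-fold higher, with both signals well above background. Col6a3, a long chain of type VI microfilaments (TC0100002789.mm.1), had 7.19 in globule-containing areas and 4.94, at background, in globule-free areas, at least 4.44-fold higher. The log2 difference of Col14a1, 1.84, and that of Col6a3, 2.24, are of the size seen for Col3a1 (2.43).

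The 3 chains of the common type VI molecule differed among themselves. Col6a1 had 5.15 in globule-containing areas and 4.58, below background, in globule-free areas, at least 1.08-fold higher. Col6a2 had 4.89 in globule-containing areas, barely above background, and 4.57 in globule-free areas. The log2 difference of Col6a3 (2.24) was larger than that of Col6a1 (0.57) by 1.68 and larger than that of Col6a2 (0.33) by 1.92. Since the globule-free signals of all 3 chains lay at background, these gaps compare signals near background. The alternative chains Col6a5 and Col6a6 were at background on both arrays.

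Among the other members above background, Col10a1, a short-chain collagen known from growth cartilage, had 5.76 in globule-containing areas and 5.22 in globule-free areas, 1.45-fold higher. Col12a1, which like Col14a1 sits on fibrils, had 4.92 in globule-containing areas and 4.33, below background, in globule-free areas. The other 17 of the class were at background on both arrays, with signals between 3.58 and 4.78 in globule-containing and between 3.64 and 4.71 in globule-free areas. They are Col9a1, Col9a2, Col9a3, Col16a1, Col19a1, Col20a1 and Col22a1 of the fibril-associated kind, the transmembrane collagens Col13a1, Col17a1, Col23a1 and Col25a1, the short-chain collagens Col8a1 and Col8a2, and Col6a5, Col6a6, Col26a1 and Col28a1. Their log2 differences ran between -0.17 and 0.51, 3 above 0 and 14 below. Of these, Col8a1 (4.16 in globule-containing areas and 3.64 in globule-free areas) and Col6a5 (4.78 and 4.33 in the same order) had the largest differences, and both signals lay below background on both arrays.

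Among the 9 processing enzymes, Loxl1 had the largest difference, and P4ha1 and Plod1, which act on collagen in the ER, were nearly even. Loxl1, a lysyl oxidase best known for cross-linking elastin (TC0900002391.mm.1), had 5.90 in globule-containing areas and 4.23, below background, in globule-free areas. Its difference on the deposited scale was 1.67, but with the globule-free signal raised to background it was at least 1.82-fold higher, below the 2-fold threshold. With all dim values raised in this way, 5 members instead of 6 were at least 2-fold higher and 1 lower, against 2.99% and 2.53% of all genes. The other lysyl oxidases were at background on both arrays: Loxl3 had 4.82 in globule-containing areas and 4.35 in globule-free areas, Lox 4.32 and 3.94 in the same order, and Loxl4 4.01 and 3.90.

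P4ha1, the main catalytic subunit of prolyl 4-hydroxylase, had 6.57 in globule-containing areas and 6.51 in globule-free areas. P4ha2, the second catalytic subunit, had 5.20 in globule-containing areas and 4.78, below background, in globule-free areas, at least 1.12-fold higher. Plod1, a lysyl hydroxylase, had 6.72 in globule-containing areas and 6.69 in globule-free areas. The differences of P4ha1 (0.06) and Plod1 (0.03) were -0.02 and -0.06 after quantile normalization, so neither has a direction. P4ha3 and Plod2 were at background on both arrays, with differences of -0.04 and 0.20. In all, 8 of the 9 enzymes had a positive difference, but 5 of the 9 lay at background.

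Among the 4 probe sets that name a member beside another gene, those naming Loxl2 and Plod3 lay above background on an array. The probe set of Loxl2, an enzyme that cross-links type IV collagen, also names Gm21451 and a microRNA. It had 6.22 in globule-containing areas and 4.81, below background, in globule-free areas, at least 2.27-fold higher, and which of the named genes the signal comes from cannot be told apart. The probe set of Plod3, which also names Mir702, had 6.49 in globule-containing areas and 6.07 in globule-free areas. Those of Col7a1 and Col6a4 were at background on both arrays.

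**Figure D3:**
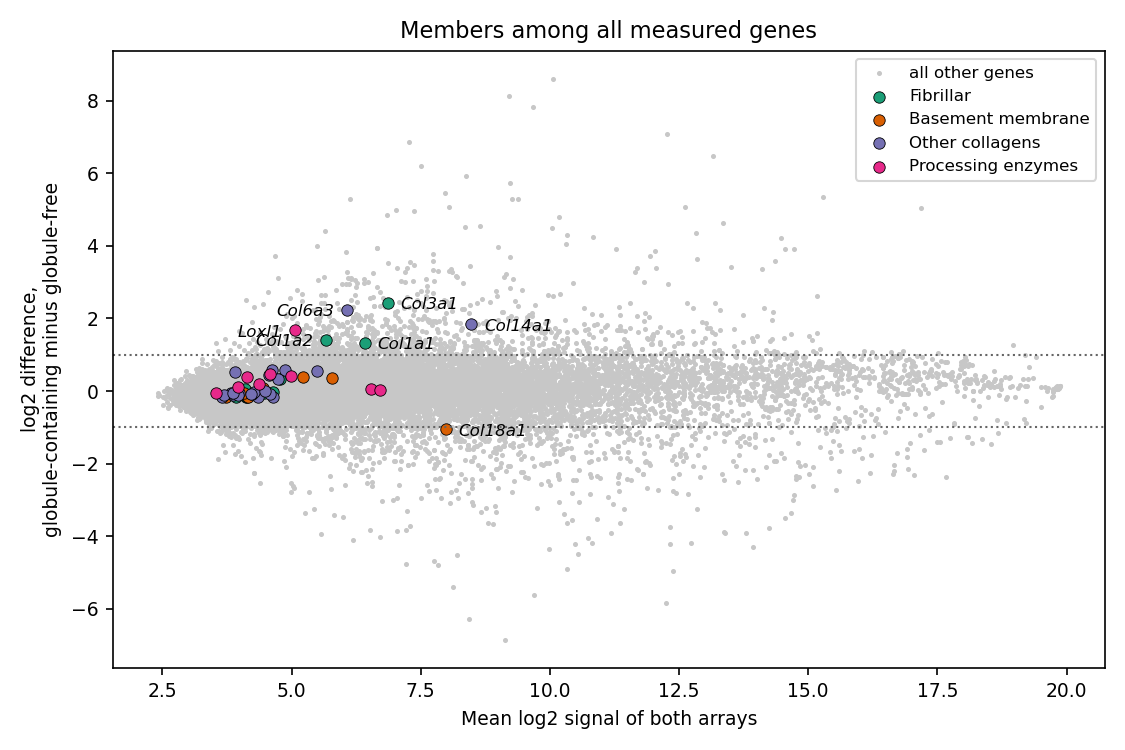
Log2 difference, globule-containing minus globule-free (vertical axis), against the mean log2 signal of both arrays (horizontal axis) for all 30142 genes in grey and the 51 members in colour by class. Dotted lines mark 2-fold. Most members lie at the dim end on the left, and the 7 labelled ones lie among many other genes with differences as large.

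The members were set beside other genes of the collagen pathway, taken from lists chosen with earlier results of these data known and read against the 3.41% of all genes that were higher and the 2.87% that were lower by 2-fold or more. In the list of collagen folding, modification and export in the ER, 1 of 16 measured genes was higher by 2-fold or more and none lower by as much, and the list median was 0.20. Crtap, which with prolyl 3-hydroxylase modifies procollagen, had 7.39 in globule-containing areas and 6.11 in globule-free areas, 2.44-fold higher. The prolyl 3-hydroxylase P3h1 had 6.32 in globule-containing areas and 6.34 in globule-free areas (named after its value was seen). Pepd, a peptidase that recycles proline from collagen fragments, was 1.93-fold higher, Mia2, an ER export factor for large cargo, 1.70-fold and the prolyl 3-hydroxylase P3h2 1.55-fold. Ctage5, listed beside Mia2 and counted as a separate gene, had 12.53 in globule-containing areas and 12.67 in globule-free areas (named after its value was seen). Serpinh1, the collagen chaperone HSP47, had 6.48 in globule-containing areas and 6.07 in globule-free areas, 1.32-fold higher.

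Of 7 measured genes that cut the ends off procollagen or help to do so, none was 2-fold apart, and the median was -0.06, as over all genes. Bmp1, the C-proteinase of fibrillar procollagen, had 6.24 in globule-containing areas and 6.85 in globule-free areas, 1.53-fold lower. Pcolce, which enhances that enzyme, was 1.22-fold higher, and Pcolce2, its relative, was at background on both arrays, as were Tll1, Tll2, Adamts3 and Adamts14.

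Proteins that bind collagen fibrils and enzymes that break collagen down had list medians above that of all genes (-0.06). Of 15 fibril-binding genes, 9 were higher by 2-fold or more and 1, fibronectin (Fn1), lower (named after its value was seen), and the list median was 1.52. Of the 9, Fmod was at least 1.70-fold higher, below the threshold, with its globule-free signal raised to background. Lum, lumican, had 13.24 in globule-containing areas and 9.32 in globule-free areas. Dcn, decorin, had 15.22 in globule-containing against 11.80 in globule-free areas, Bgn, biglycan, 13.75 against 10.36, and Thbs1, thrombospondin 1, 6.78 against 4.82, the last at background in globule-free areas. The 3 proteoglycans were thus more than 10-fold higher, on the deposited scale a larger difference than that of any member. For members at background in globule-free areas, such as Col6a3, the fold is only a lower bound. Of 11 genes of collagen breakdown and its inhibitors, 6 were higher by 2-fold or more and 0 lower by as much, and the list median was 1.24. Of the 6, Timp1 was at least 1.53-fold higher, below the threshold, with its globule-free signal raised to background. Mmp12, a macrophage elastase, was 23.1-fold higher, Mmp13, a collagenase, at least 2.81-fold, Mmp14, a membrane-bound collagenase, 3.13-fold, and the inhibitor Timp2 3.80-fold.

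Partners and receptors differed less. Of 15 basement membrane partners, 2 were higher by 2-fold or more and none lower by as much, and the list median was 0.21. Nid1, nidogen, which links laminin to type IV collagen, had 8.51 in globule-containing areas and 7.05 in globule-free areas, 2.76-fold higher. The laminin chain Lamc1 was 1.89-fold higher, Lama2 at least 1.71-fold and Lamb1 at least 1.54-fold. Lama2 counts among the 2 only on the deposited scale, where its log2 difference was 1.01. Of 10 receptors and uptake genes, 1 was higher by 2-fold or more and 0 lower by as much on the deposited scale, and the list median was 0.03. This was Ddr2, a receptor tyrosine kinase that binds fibrillar collagen, which was at least 1.65-fold higher with the globule-free signal raised to background. Itgb1, the beta chain of collagen-binding integrins, was 1.51-fold higher, Lair1, an inhibitory collagen receptor of leukocytes, 1.36-fold higher, and Mrc1, the mannose receptor, 1.41-fold lower.

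Markers of collagen-producing cells stand beside these values. Of 11 measured stellate cell markers, 7 were higher by 2-fold or more in globule-containing areas and 0 lower by as much, and the median log2 difference was 1.57. Of the 7, Hand2 was at least 1.92-fold higher, below the threshold, with its globule-free signal raised to background. The summed linear signal of the list was 5681 in globule-containing areas and 1403 in globule-free areas, and 2 members, Des and Lhx2, lay at background on both arrays. Lrat, which esterifies retinol in stellate cells, had 9.10 in globule-containing areas and 5.64 in globule-free areas, and Pdgfrb, the receptor for platelet-derived growth factor, 7.34 against 5.77. On the deposited scale, differences of the collagens higher by 2-fold or more ran from 1.33 (Col1a1) to 2.43 (Col3a1). Among these, the globule-free signals of Col1a2 and Col6a3 lay at background. The part of stellate cells in the collagen values was not tested.

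Of 10 portal fibroblast markers, 2 were higher by 2-fold or more and 0 lower by as much, the list having a median of 0.28, a summed linear signal of 485 in globule-containing areas and 328 in globule-free areas, and 5 members, Thy1, Fbln2, Gli1, Msln and Pi16, at background on both arrays. Dpt, dermatopontin, was at least 2.78-fold and Entpd2, an ectonucleotidase, at least 1.98-fold higher, so Entpd2 counts among the 2 only on the deposited scale. Of 6 smooth muscle and myofibroblast markers, 1 was higher by 2-fold or more, the list having a median of 0.12 and a summed linear signal of 363 in globule-containing areas and 203 in globule-free areas. This was Acta2, the actin of smooth muscle and activated stellate cells, with 7.15 in globule-containing areas and 4.98, at background, in globule-free areas, while Myh11 and Cnn1 lay at background on both arrays. No endothelial marker of 12 and no cholangiocyte marker of 6 was 2-fold apart, with medians of -0.01 and 0.31. The endothelial sums were 3557 in globule-containing areas and 3117 in globule-free areas, with Vwf at background on both arrays (1286 in globule-containing areas and 1463 in globule-free areas without the brightest members, Clec4g and Stab2), and the cholangiocyte sums were 251 in globule-containing areas and 193 in globule-free areas, with Krt7 and Cldn4 at background on both. Macrophage markers split, with 3 of 12 higher and 5 of 12 lower by 2-fold or more, a median of 0.04 and sums of 25941 in globule-containing areas and 7164 in globule-free areas. Most of the globule-containing sum came from Cd68, 13.3-fold higher, and Gpnmb, 277-fold higher, and without them the sums were 1777 in globule-containing areas and 6053 in globule-free areas. The 5 lower markers were Clec4f, Vsig4, Cd5l, Timd4 and Marco, known from resident macrophages of the liver, which were between 2.92-fold and 8.28-fold lower. These macrophage genes were named after their values were seen. The part of these other cell types was not tested either.

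**Figure D4:**
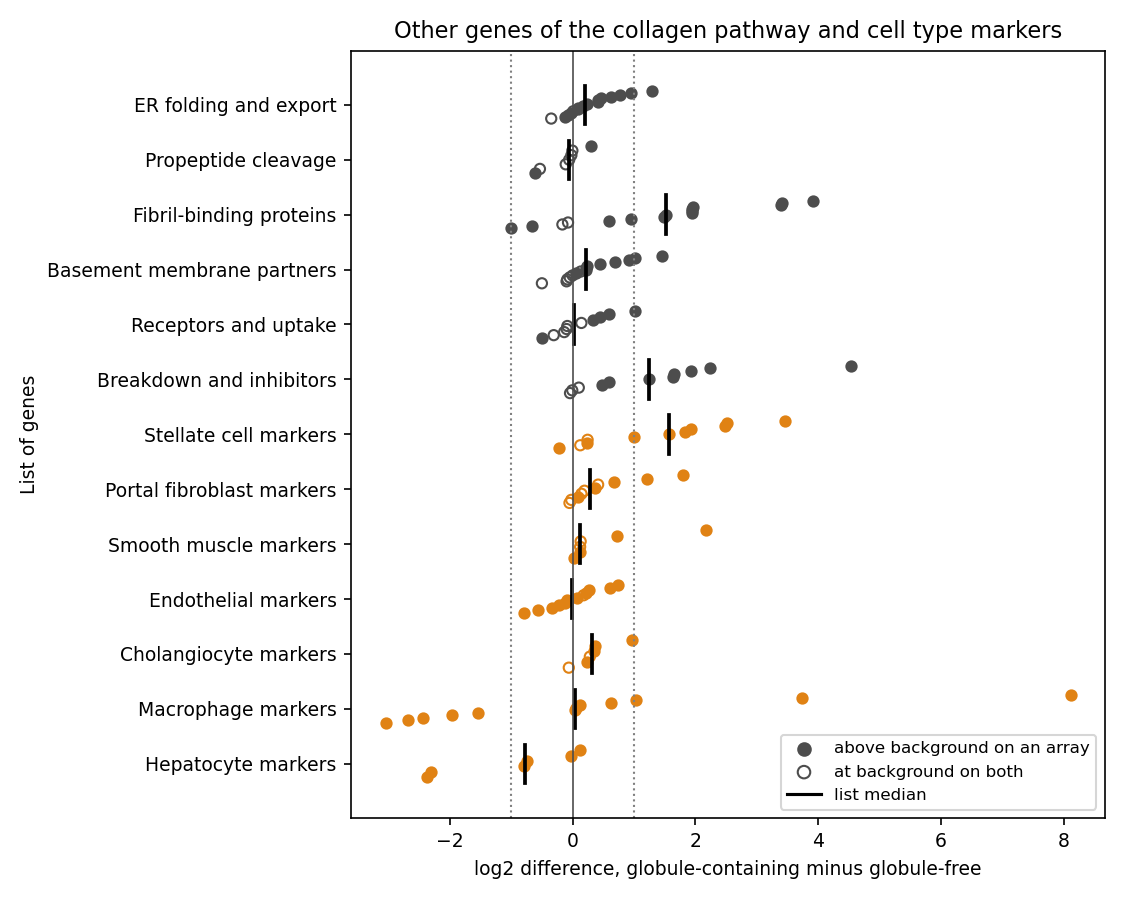
Log2 difference, globule-containing minus globule-free (horizontal axis), of each measured gene in 6 lists of the collagen pathway (grey) and 7 lists of cell type markers (orange), with genes at the array's ceiling left out. Filled points lie above background on an array, open points on neither, and bars are list medians, 1.52 for fibril-binding proteins, 1.24 for breakdown and inhibitors and 1.57 for stellate cell markers, against 0.20 for ER folding and export.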

How the data were processed

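Each group was 1 array, with 50 ng of input RNA, per the labels. The deposited table holds log2 signals per probe set. Per the submitters' processing notes the authors used the Transcriptome Analysis Console, with no version. The normalization, the background correction and the genome build of the files are stated nowhere in the sources used here.

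Probe sets were named from the platform annotation: 30604 name 1 gene and were used, 2146 name several and 39938 have none listed here. Probe sets of 1 gene were averaged, and each member has 1. Each difference was the globule-containing log2 signal minus the globule-free one. Differences of at least 2-fold were counted with no floor on low signals. Folds with 1 array at background use the background level and are given as "at least". No fold is given where both arrays are at background or within 0.2 of the array's highest value, or where raised values leave no difference. The members and all lists were chosen with earlier results of these data known. Every member is accounted for, and of each pathway list the 4 genes above the floor with the largest difference, and Serpinh1, are named. Counting was tested on simulated data. Signals ran between 1.85 and 19.93 on the globule-containing and between 1.85 and 19.80 on the globule-free array. The number of arrays limits the precision. Alternatives were floors on low signals, scaling, probe set choice, raised dim values, probe sets with several names, a 4-fold threshold and type IV chains alone. The tools were pandas 2.3.3, numpy 2.4.6, statsmodels 0.14.6 and matplotlib 3.10.9, run under Python 3.11.15.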

Additional observations from a re-analysis of the deposited data

Results flagged for a closer look

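Loxl2 was not among the members, because its probe set names further genes. That probe set had a log2 difference of 1.41, globule-containing minus globule-free, with 6.22 in globule-containing areas and a globule-free signal of 4.81 at background. It was singled out as a signal above background in data outside the comparison.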

How the results depend on the processing

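No paired analysis was possible because each group has 1 array. Of 59 values recomputed under the alternatives, 45 stayed within the limits set and 14 moved beyond them. The limit was 1.5 times for a count and 0.17 for a median. The 0.17 is the median gap between the log2 differences of 2 probe sets of 1 gene, over 173 genes. Values for probe set choice could not move, since each member has 1 probe set, and median centring only adds 1 constant to every difference. The processing median changed sign, from 0.20 in the main setting to -0.19 with dim values raised. The counts of 6 higher and 1 lower members were the same under median centring, quantile normalization, loess correction and the floor at the median of named probe sets (a mean log2 signal of 4.76), where 6.47% of all genes were higher and 5.26% lower. With that floor 15 members were left, and the median was 0.54 over all members, 1.37 for fibrillar, 0.35 for basement membrane and 1.20 for other collagens. With the floor at the 75th percentile (6.70), 4 members were left, 2 of them higher, and the medians were 0.93 over all, 2.43 fibrillar, -1.06 basement membrane, 1.84 other and 0.025 processing. A floor drops dim members by construction, and these medians describe the bright ones only. At 4-fold, 2 members were higher and 0 lower. With dim values raised to background, the median of all members and of each of the 4 classes, processing included, was -0.19, which is the gap between the background levels of the arrays and carries no information on the genes. The processing median was 0.38 with probe sets of several names included. Each of the 7 members at least 2-fold apart kept its direction under all 3 scalings, with Col18a1 between -1.14 and -1.03. Members at background limit what can be said: 34 of 51 had no signal above it on either array.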
